A study of Mus musculus with 25 samples.

Results

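The chromatin of memory CD8+ T cells that had gone through a pregnancy was compared with that of memory cells that had not. The comparison set the 4 S+P C5 samples against the 4 Sensitized samples, 8 of the 25 samples of an ATAC-seq series with 7 groups, over all 13527 peaks of its count table. All cells were fetus/graft-specific CD8+ T cells (T_FGS), isolated from spleen and lymph nodes of female C57BL/6 mice with a tetramer that binds T cells specific for an ovalbumin (OVA) peptide on the class I molecule Kb. Sensitized mice had rejected a skin graft from a 2W-OVA.BALB/c donor, a transgenic strain that expresses the 2W-OVA model antigen throughout the body, and were never mated. S+P mice had rejected the same kind of graft and then carried a semi-allogeneic pregnancy by a 2W-OVA.BALB/c male, and their cells were taken within days after birth. C5 was the PD1+CD73+ fraction of those cells, PD1 being the inhibitory receptor encoded by Pdcd1 and CD73 the ectoenzyme encoded by Nt5e. The Sensitized samples carry no such gate in their labels, and they were timed from the graft rather than from birth. Pregnancy, the PD1+CD73+ gate and the time since the graft therefore cannot be told apart in this comparison. In bulk samples, fewer cells in which a site is open and less open chromatin per cell cannot be told apart either.

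ATAC-seq reads out open chromatin: the Tn5 transposase inserts sequencing adapters where DNA is not covered by nucleosomes, so that reads pile up over active promoters and enhancers. Promoters are open in most cells, while enhancers, which often lie in introns or between genes, open and close as T cells pass from the naive to the memory, effector or exhausted state. Exhausted CD8+ T cells, known from chronic infection and tumours, keep inhibitory receptors such as PD1 and TIGIT and the transcription factor TOX, and hold a pattern of open enhancers of their own. A peak more open in S+P C5 is called an opening peak here, and a peak less open in S+P C5 a closing peak.

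The peaks at the head of each direction are shown by sequence. They are 3 opening and 3 closing peaks from the first 4 of each direction by adjusted p, among called peaks whose 8 values did not overlap between the groups, with at most 1 peak per gene. The Nedd4l and Smad7 peaks, which are among those 4, are not shown because sequence of the chromosome they share was left out. Each line gives the central 300 bases of the peak on the plus strand of GRCm39, at chr16:43482120-43482419 (Tigit), chr2:68264911-68265210 (Stk39), chr2:162945156-162945455 (Gtsf1l), chr9:116198173-116198472 (Tgfbr2), chr8:115607094-115607393 (Wwox) and chr13:73897140-73897439 (Slc12a7). Names are those of the nearest protein-coding gene start, which does not show that the element acts on that gene. Capitals mark matches on either strand to 8 short motifs: TGANTCA (AP-1), TGTGGT (RUNX), GGTGTGA (T-box), CTTTGA (TCF/LEF), GGAAAA (NFAT), GGAAGT (ETS), AAGGTCA (NR4A) and GGGTGTG (KLF), of which the T-box and KLF motifs share letters.
Tigit: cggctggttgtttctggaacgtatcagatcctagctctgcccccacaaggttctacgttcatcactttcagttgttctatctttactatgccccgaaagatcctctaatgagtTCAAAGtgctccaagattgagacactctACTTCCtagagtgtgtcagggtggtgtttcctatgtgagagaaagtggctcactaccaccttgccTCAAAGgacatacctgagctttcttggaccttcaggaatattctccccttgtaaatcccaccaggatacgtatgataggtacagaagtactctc
Stk39: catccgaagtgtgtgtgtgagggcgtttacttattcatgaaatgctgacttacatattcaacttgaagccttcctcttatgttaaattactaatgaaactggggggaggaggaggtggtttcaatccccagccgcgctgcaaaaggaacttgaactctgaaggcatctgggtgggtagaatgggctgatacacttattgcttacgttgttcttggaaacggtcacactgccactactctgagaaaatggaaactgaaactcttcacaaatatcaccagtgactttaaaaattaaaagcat
Gtsf1l: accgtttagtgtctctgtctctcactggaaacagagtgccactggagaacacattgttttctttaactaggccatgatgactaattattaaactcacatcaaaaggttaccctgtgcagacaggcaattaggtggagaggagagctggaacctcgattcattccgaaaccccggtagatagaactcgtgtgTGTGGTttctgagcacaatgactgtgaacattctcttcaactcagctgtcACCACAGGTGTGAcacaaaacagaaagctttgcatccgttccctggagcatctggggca
Tgfbr2: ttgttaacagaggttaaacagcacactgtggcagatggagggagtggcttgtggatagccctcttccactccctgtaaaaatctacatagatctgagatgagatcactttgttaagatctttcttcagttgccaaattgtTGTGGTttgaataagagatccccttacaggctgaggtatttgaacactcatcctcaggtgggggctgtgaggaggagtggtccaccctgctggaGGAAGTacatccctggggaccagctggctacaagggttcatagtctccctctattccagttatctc
Wwox: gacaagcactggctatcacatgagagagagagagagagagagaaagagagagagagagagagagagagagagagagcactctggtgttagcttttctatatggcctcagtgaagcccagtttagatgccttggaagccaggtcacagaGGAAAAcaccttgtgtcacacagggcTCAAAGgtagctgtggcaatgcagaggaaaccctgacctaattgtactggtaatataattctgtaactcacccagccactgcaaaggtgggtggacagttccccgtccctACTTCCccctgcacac
Slc12a7: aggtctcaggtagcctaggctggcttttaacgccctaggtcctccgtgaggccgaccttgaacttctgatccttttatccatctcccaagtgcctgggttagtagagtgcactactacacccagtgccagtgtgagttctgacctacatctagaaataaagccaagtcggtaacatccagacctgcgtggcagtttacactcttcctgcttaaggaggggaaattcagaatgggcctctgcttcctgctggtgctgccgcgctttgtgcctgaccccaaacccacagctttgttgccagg
The Tigit window held 2 matches to the TCF/LEF motif and 1 to the ETS motif, and the Gtsf1l window 2 to the RUNX motif and 1 to the T-box motif, the last directly after the second RUNX match. The Tgfbr2 window held 1 RUNX and 1 ETS match, and the Wwox window 1 match each to the NFAT, TCF/LEF and ETS motifs. None of the 8 strings occurred in the Stk39 and Slc12a7 windows. A match is a description of the letters and not a measured binding site.

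Depth and the spread between samples set how firmly the groups can be compared. Counts in peaks ranged from 5361390 to 25419715 over the 8 samples, both ends in S+P C5. The 4 S+P C5 samples were alike, with a Pearson's r of 0.935 to 0.967 for their 6 pairs, computed over peaks on log2 normalized counts. The 4 Sensitized samples were not alike: replicates 3 and 4 had r = 0.985 with each other and replicates 1 and 2 had r = 0.941, while r was between 0.790 and 0.891 for pairs across. Peaks are not independent replicates, so these values describe the samples and carry no p. The samples came from independent experiments, but which sample came from which is not given in the sources used here, so the part of the experiment in the split of the Sensitized samples was not tested. Results are therefore given against all 4 Sensitized samples and, where it matters, against each pair. The share of counts in promoter peaks, which lie no more than 1000 bp from a protein-coding transcript's start, was 66.4% ± 1.22 (SD, n = 4) in S+P C5 and 65.9% ± 0.517 (SD, n = 4) in Sensitized. The two-sided exact permutation test of that difference of 0.512 percentage points gave p = 0.571, where 4 against 4 allows no p below 0.0286.

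Markers of other lineages were looked for in the peaks nearest to them. The 6 B cell markers (among them Pax5 and Ebf1) and the 6 myeloid and dendritic markers (among them Spi1, Csf1r and Lyz2) had no peak in the table. Of 4 CD4 and regulatory T cell markers, only Cd4 had peaks (2), and their summed normalized counts were 279 to 456 in S+P C5 and 236 to 510.3 in Sensitized. Of 4 NK markers only Klrb1c had peaks, 7 in all, at 3809.8 to 4528 in S+P C5 and 4074 to 4202 in Sensitized. Of 5 erythroid markers only Klf1 had a peak, at 407 to 509 in S+P C5 and 432 to 468 in Sensitized. The CD8 T cell markers, of which Cd8b1 alone had no peak, summed to 7709.5 to 9286 in S+P C5 and 6623 to 9016 in Sensitized, so the groups overlapped. The 6 naive T cell markers (among them Lef1, Tcf7 and Satb1) summed to 15199 to 18092 in S+P C5 and 19040.0, 20324, 24941 and 23899.8 in the 4 Sensitized samples. The lowest Sensitized sample stood above the highest S+P C5 sample, with replicates 3 and 4 the highest. Of their 41 peaks 8 are themselves closing peaks, 6 of Satb1 and 2 of Lef1, which also count in the list of naive and memory regulators below, so the sum is no separate measurement. The part of these marker levels in the results below was not tested.

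Across all peaks, 912 of 13527 (6.74%) passed both thresholds of the DESeq2 Wald test, adjusted p below 0.1 and a log2 change beyond 0.9 in either direction, and they split into 416 opening peaks (3.08%) and 496 closing peaks (3.67%). In this fit opening peaks changed by more: their log2 fold changes had a median of 1.39 and a highest value of 5.40, against a median of -1.16 and a lowest value of -1.97 for closing peaks. The median over all peaks was -0.01. The reads behind a peak set the precision of its fold change: the median normalized count over all 25 samples, not scaled for peak length, was 168 for opening peaks, 263 for closing peaks and 472 for all peaks. When offsets that remove any trend of the fold change with the level of a peak were used in place of size factors, the split became 196 opening and 648 closing peaks, of which 196 and 495 were also in the split above. The offsets also lowered the log2 fold changes of the first opening peaks, as given below.

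**Figure D1:**
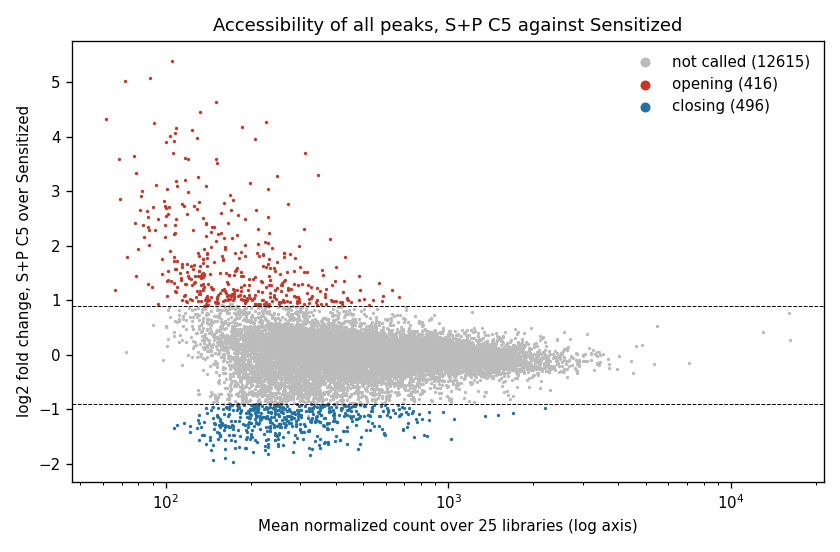
Each point is 1 of 13527 peaks, with its mean normalized count over 25 samples on a log axis and its log2 fold change in S+P C5 over Sensitized. Red points are the 416 opening and blue points the 496 closing peaks, grey points were not called, and dashed lines mark the log2 threshold of 0.9. Opening peaks lie at low mean counts over the 25 samples and reach 5.40, while no closing peak falls below -1.97.

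The 2 directions rested on the Sensitized samples to a different degree. Among the opening peaks, 356 of 416 had every S+P C5 value above every Sensitized value, and among the closing peaks 158 of 496 had every S+P C5 value below. Over all peaks the same separation held for 7.66% (1036 higher) and 7.04% (952 lower). Against Sensitized replicates 1 and 2 alone, 249 opening and 82 closing peaks were still called. Against replicates 3 and 4 alone, 397 opening and 473 closing peaks were. Both pairs gave the call for 230 of the 416 opening peaks (55.3%) and 59 of the 496 closing peaks (11.9%). The median log2 fold change of the closing peaks was -0.51 against replicates 1 and 2 and -1.60 against replicates 3 and 4, and 50 of the 496 changed sign against replicates 1 and 2. That of the opening peaks was 1.10 against replicates 1 and 2 and 2.09 against replicates 3 and 4, and none changed sign. Leaving out 1 sample at a time moved the number of closing peaks to 294 without Sensitized replicate 3 and 305 without replicate 4.

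**Figure D2:**
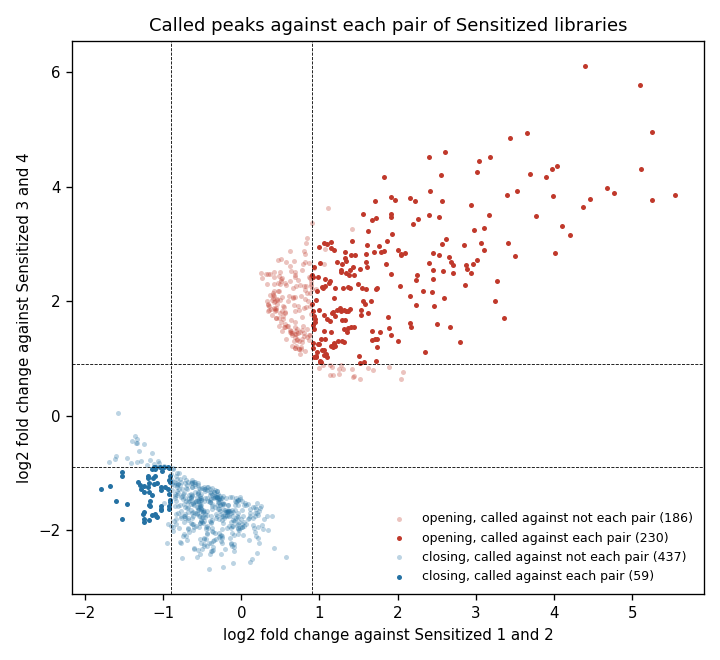
Each point is 1 of the 912 called peaks, with its log2 fold change in S+P C5 against Sensitized replicates 1 and 2 on the horizontal axis and against replicates 3 and 4 on the vertical axis. Both axes share the S+P C5 samples. Dark points, 230 opening and 59 closing, were called against each pair, and 85 of the 496 closing peaks lie past the dashed threshold of the horizontal axis.

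Both sets lay away from promoters. Only 19 of the 7670 promoter peaks opened and 31 closed. Of the 2920 peaks in introns, 239 (8.18%) opened and 246 (8.42%) closed, and of the 2650 between genes 148 (5.58%) opened and 201 (7.58%) closed. Peaks outside promoters made up 94.5% of called peaks and 43.3% of all peaks. The share called rose with distance from the nearest gene start: within 1 kb 0.171% opened and 0.31% closed, from 10 to 50 kb 5.66% and 6.18%, and beyond 100 kb 9.87% opened and 107 of 892 closed. The median distance was 36277 bp for opening and 40558 bp for closing peaks. Called peaks were also shorter and poorer in G and C than other peaks outside promoters: median GC content was 46.2% in opening, 46.6% in closing and 48.5% in uncalled peaks, at median lengths of 650.5, 760.5 and 818 bp.

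The pooled peak lists, which hold the peaks that recurred within a group, held most opening peaks but not most closing peaks. Of the 416 opening peaks, 377 (90.6%) overlapped a peak of the S+P C5 list alone, 10 overlapped both lists and 1 that of Sensitized alone. Of the 496 closing peaks, 148 (29.8%) overlapped the Sensitized list alone, 32 both lists and 1 the S+P C5 list alone, while 315 (63.5%) were in neither. Over all peaks the S+P C5 list alone held 19.5%, both lists 63.4%, the Sensitized list alone 7.73% and neither list 9.38%, and of the opening peaks 28 (6.73%) were in neither. These lists were called from the same reads and are no independent measurement.

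The motif content of the central 300 bases differed between the sets. AP-1 factors are dimers of Fos, Jun and Batf proteins that act downstream of the T cell receptor, and their motif occurred in 126 of the 416 opening peaks (30.3%), 46 of the 496 closing peaks (9.27%) and 15.3% of uncalled peaks outside promoters. The T-box motif, bound by T-bet and Eomes, was in 14.9% of opening, 4.64% of closing and 7.45% of uncalled peaks. The NFAT motif, bound by the factors that calcium signalling brings to the nucleus, was in 30.5%, 22.6% and 23.4%. Those of TCF/LEF and ETS factors, which include the memory factor TCF1 and the T cell factor ETS1, leaned the other way: TCF/LEF was in 26.2% of opening, 33.7% of closing and 24.5% of uncalled peaks, and ETS in 25.2%, 35.9% and 32.8%. RUNX was in 37.3%, 45.0% and 40.2%, NR4A in 8.17%, 4.84% and 4.62%, and KLF in 10.6%, 9.27% and 11.3%. Over all 13527 peaks the shares were 9.16% for AP-1, 5.13% for T-box, 19.1% for NFAT, 16.2% for TCF/LEF, 29.3% for ETS, 24.4% for RUNX, 3.44% for NR4A and 9.16% for KLF. Among the 230 opening and 59 closing peaks called against each pair of Sensitized samples, AP-1 was in 23.04% and 16.9%, T-box in 13.9% and 1.69%, NFAT in 30.00% and 20.3%, TCF/LEF in 26.1% and 42.4%, ETS in 23.04% and 49.2%, RUNX in 36.5% and 49.2%, NR4A in 8.70% and 11.9% and KLF in 11.3% and 6.78%. The order of opening and closing peaks turned for NR4A there, on 20 opening and 7 closing peaks with the motif, and for no other motif. Over whole peaks, which differ in length between the sets, the shares in opening, closing and uncalled peaks outside promoters were 47.6%, 22.6% and 34.6% for AP-1, 24.5%, 12.9% and 19.6% for T-box, 54.8%, 48.6% and 52.6% for NFAT, 50.96%, 59.7% and 51.3% for TCF/LEF, 42.3%, 58.9% and 59.8% for ETS, 60.6%, 69.4% and 67.1% for RUNX, 17.8%, 13.9% and 16.5% for NR4A and 22.6%, 20.4% and 28.5% for KLF, so that the shares of NFAT and NR4A in opening and uncalled peaks lay close together. The sets differ in GC content, as given above, and the part of that in these shares was not tested.

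The opening peak with the smallest adjusted p lay at chr16:43481871-43482667 in an intron of Tigit, 2240 bp into the gene, which encodes an inhibitory receptor for ligands of the nectin family. Its normalized counts were 339, 386, 369 and 315 in S+P C5 and 72.1, 56.5, 57.3 and 77.6 in Sensitized. All 4 S+P C5 samples were high, and the 4 Sensitized samples differed little from each other. The log2 fold change was 2.41 ± 0.19 (SE), with an adjusted p of 9.51e-34 (DESeq2). The next was in an intron of Stk39 (chr2:68264641-68265480), a kinase that regulates ion transporters, with 559, 663, 444 and 525 in S+P C5 and 103, 117, 114 and 129 in Sensitized (log2 fold change 2.24 ± 0.19). Here too the Sensitized samples were close to one another. The choice of these peaks, by adjusted p and without overlap, requires the separation and favours little spread within the groups.

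Some of the other first opening peaks had larger fold changes. The peak 60743 bp upstream of Ppp2r5c (chr12:110352524-110353036), which encodes a regulatory subunit of the phosphatase PP2A, had 273, 285, 307 and 159.7 normalized counts in S+P C5 and 5.77, 7.85, 3.44 and 13.02 in Sensitized, which is 5.09 ± 0.49 on the log2 scale. A peak in an intron of Nedd4l, a ubiquitin ligase, had 421, 563, 253 and 297 against 23.1, 25.9, 16.1 and 22.8 (log2 fold change 4.13 ± 0.37). One 13430 bp upstream of Gtsf1l (chr2:162944721-162945889) had 932, 1122, 785 and 702 against 57.7, 52.6, 109 and 138 (3.30 ± 0.31). In the last of these Sensitized replicates 3 and 4 were higher than 1 and 2, so the fold change against replicates 1 and 2 alone was larger, 4.00. The peak 56282 bp upstream of Pkdcc (chr17:83465272-83466596), a secreted kinase, showed the other order, 807, 1045, 738 and 668 against 86.5, 93.4, 26.9 and 43.9 (3.70 ± 0.35). The remaining 4 of the first 10 lay nearest to Cyrib (inside Asap1, log2 fold change 1.96 ± 0.19), the phosphatase gene Ptpn13 (2.14 ± 0.21), ENSMUSG00000144241 (inside Prrc2b, 3.19 ± 0.31) and Stx6 (2.53 ± 0.25). All 10 were called under all 20 alternative settings, but the offsets lowered their log2 fold changes, by the most at Ppp2r5c (2.25) and Nedd4l (2.11), to 1.38 at Tigit, and by the least at Gtsf1l (3.14).

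The closing peak with the smallest adjusted p lay 193522 bp upstream of Tgfbr2 (chr9:116197862-116198783), between genes. Tgfbr2 encodes the receptor subunit that binds TGF-beta. Its normalized counts were 357, 306, 422 and 448 in S+P C5 and 939.7, 942, 898 and 881 in Sensitized (log2 fold change -1.25 ± 0.16, SE), with an adjusted p of 5.81e-12 (DESeq2). The 4 Sensitized samples lay within a narrow band and all S+P C5 samples below it, a separation that the choice of the peak requires and a narrowness that it favours. A peak 44943 bp upstream of Smad7, the inhibitor of the same receptor, had 230.1, 161, 228 and 163 against 480.5, 411, 477 and 517 (log2 fold change -1.26 ± 0.18). The peak in an intron of Slc12a7 (chr13:73896832-73897747), a potassium-chloride transporter, had 236, 124, 224 and 243 against 448, 464, 467 and 496 (-1.16 ± 0.17). In both the Sensitized samples again stood together.

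A pair of other closing peaks had more spread among the Sensitized samples. That in an intron of Wwox (chr8:115606445-115608041) had 331, 178, 303 and 284 in S+P C5 and 495, 699.9, 892 and 932 in Sensitized (-1.45 ± 0.21 on the log2 scale), and that in an intron of Tiam1 (chr16:89734956-89735819), an activator of the GTPase Rac, had 261, 156, 256 and 259.7 against 525, 766, 702 and 666 (-1.50 ± 0.23). Sensitized replicate 1 was the lowest of its group at both. The remaining 5 lay nearest to 4930523C07Rik (-1.57 ± 0.23), Edaradd (-1.40 ± 0.21), Fbxl21 (-1.02 ± 0.15), Gm17455 (in Cdh23 and Vsir, -0.96 ± 0.15) and Gramd2b (-0.996 ± 0.15). Of the 10, 8 were called under all 20 settings. Fbxl21 was not called against Sensitized replicates 1 and 2 alone (-0.89). Gm17455 was not called there either (-0.78), nor without Sensitized replicate 3 (-0.90), Sensitized replicate 4 (-0.90) or S+P C5 replicate 3 (-0.88), where its fold change was under the threshold before rounding.

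**Figure D3:**
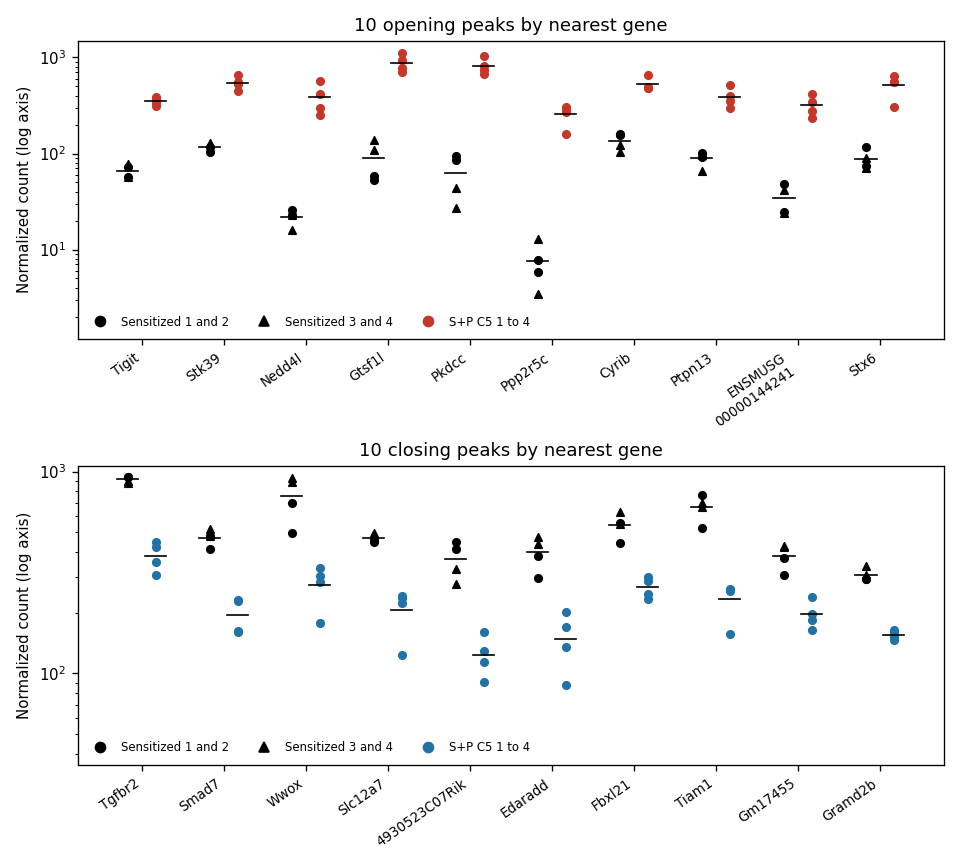
Normalized counts on a log axis of the first 10 opening (upper) and closing (lower) peaks, named by nearest gene, with Sensitized replicates 1 and 2 as black circles, 3 and 4 as black triangles and the 4 S+P C5 samples in colour. Short lines are group means, and in each of the 20 peaks the groups do not overlap, as the choice of the peaks requires.

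Several genes gathered more than 1 called peak. The 912 called peaks lay nearest to 727 genes, 346 with an opening and 398 with a closing peak, and 17 with both. Of the 125 genes with 2 or more called peaks, 108 had them all in 1 direction. Wwox had the most, 8 of its 10 peaks over 263.7 kb: 6 closed, and 2 deeper in the gene opened, with log2 fold changes of 4.19 ± 0.57 (chr8:115704362-115705151) and 3.09 ± 0.45 (chr8:115791373-115791899). Satb1 had 6 closing peaks of 12, Bach2 5 of 13 and Otulinl 5 of 9, all of the last within or near Trio. Rps6kb1 had 5 opening peaks of 8, 4 of them in an intron of Vmp1, and Ppp2r5c (4 of 8), Fasl (4 of 16) and Rplp1 (4 of 12) had opening peaks alone. All 4 peaks of Ppp2r5c, which span 15.1 kb upstream of the gene, were called against each pair of Sensitized samples, as were 3 of 4 for Fasl and 3 of 4 for Rplp1, but 1 of 6 for Satb1, 1 of 5 for Bach2, 1 of 5 for Rps6kb1 and none of 5 for Otulinl.

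The genes of T cell states were described through 11 lists, each with all peaks nearest to its genes. Counts are set beside those of all peaks, of which 3.08% opened and 3.67% closed, and medians beside the median of all peaks, -0.01. Promoter peaks, which rarely changed, are part of those shares. Of the 5857 peaks outside promoters, 397 opened and 465 closed, which are higher shares. The lists were not split by peak class, and the part of promoter content in their shares was not tested.

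**Figure D4:**
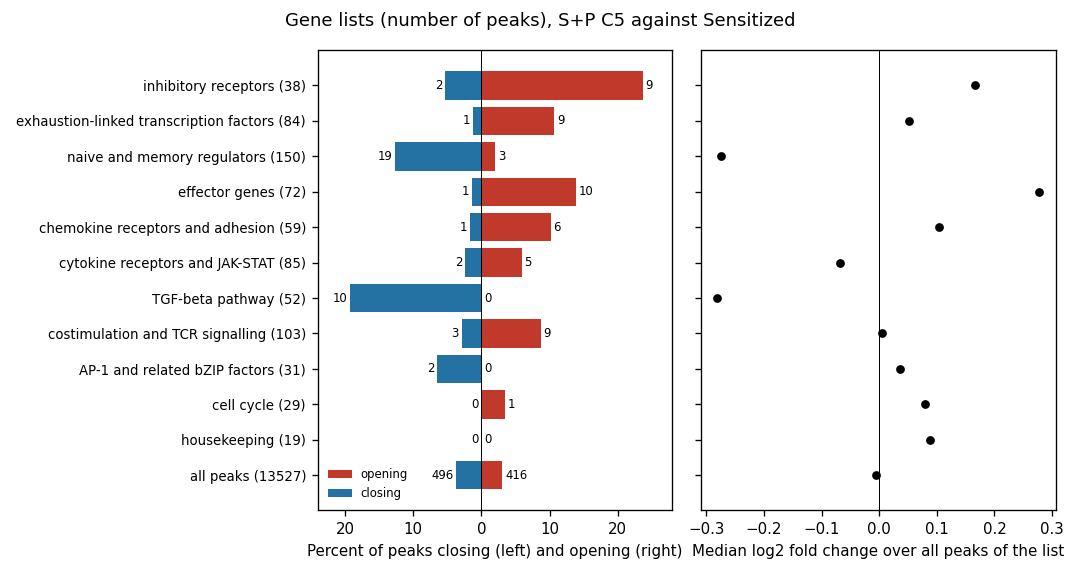
Left, percent of the peaks of each list that closed (blue, to the left) or opened (red, to the right), with the number of called peaks at each bar and that of all peaks of the list in parentheses. Right, the median log2 fold change over all peaks of the list. The TGF-beta pathway has 10 closing and 0 opening peaks of 52, and inhibitory receptors 9 opening and 2 closing of 38, which became 4 and 2 with the offsets. The sort genes Pdcd1 and Nt5e are kept in that list.

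Inhibitory receptors restrain T cell activation. Of their 38 peaks, 9 opened (23.7%) and 2 closed, with a median log2 fold change of 0.17, and 4 genes of the list (Lag3, Cd160, Cd244a and Cd200r1) had no peak. With the offsets described above the list had 4 opening and 2 closing peaks and a median of -0.001, against Sensitized replicates 1 and 2 alone 4 and 0, and against replicates 3 and 4 alone 14 and 3. Pdcd1 and Nt5e were put in the list, although CD73 is an ectoenzyme. They encode the surface proteins that C5 was sorted on, so their 3 opening peaks are given for completeness. Without the 10 peaks of these sort genes, a count added after the data were seen, 6 of 28 peaks opened (21.4%) and 2 closed, with a median of 0.20, and with the offsets 3 opened and the median was 0.051. Ctla4, the receptor that competes with CD28 for its ligands, opened at a peak 25633 bp past its start (chr1:60950459-60953126), with 1049, 1371, 995 and 1089.6 in S+P C5 and 352, 434, 569 and 627 in Sensitized (log2 fold change 1.18 ± 0.22, adjusted p 3.93e-06 in DESeq2). Btla opened at chr16:45072085-45072720, with 475, 565, 368 and 335 against 80.8, 90.2, 198 and 205 (1.60 ± 0.34). At both, Sensitized replicates 1 and 2 were the lowest of all 8 samples. Havcr2, which encodes TIM-3, and Entpd1, which encodes the ectoenzyme CD39, had the opposite order. The Havcr2 peak (chr11:46365060-46365378) had 173, 204, 131 and 190.3 against 112, 52.6, 22.4 and 23.9 (1.72 ± 0.48), and the Entpd1 peak 186, 222, 124 and 149 against 117, 64.3, 7.45 and 25.5 (1.67 ± 0.54). Against Sensitized replicates 1 and 2 alone they were at 1.08 (adjusted p 0.145 in DESeq2) and 0.90 (adjusted p 0.179) and were not called. The 2 closing peaks of the list, nearest to Cd96 (56.5, 82.4, 298 and 245 in Sensitized, 87.3, 33.7, 33.6 and 52.2 in S+P C5) and Cd101 (124, 180.5, 339 and 319 and 171, 64.3, 129 and 91.1), rested on Sensitized replicates 3 and 4, and against replicates 1 and 2 alone the values were -0.39 and -0.40. Cd101 was also not called without Sensitized replicate 3 (-0.85), Sensitized replicate 4 (-0.90) or S+P C5 replicate 2 (-0.88).

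The sort genes themselves varied among the Sensitized samples. Of the 5 Pdcd1 peaks, that 3016 bp upstream (chr1:93982381-93984275) had 758, 895, 849.9 and 532 in S+P C5 and 545, 595, 169 and 215 in Sensitized. Sensitized replicates 1 and 2 came up to the lowest S+P C5 sample, and replicates 3 and 4 stood far below. Its log2 fold change was 0.99 ± 0.31, and 0.41 against replicates 1 and 2 alone, 0.75 without replicate 3 and 0.80 without replicate 4, in none of which it was called. The peak 22416 bp upstream was called at 1.16 ± 0.46 with an adjusted p of 0.0503 (DESeq2), and it was not called under 8 of the 20 settings: it was at 0.51 against replicates 1 and 2 alone and 0.74 with the offsets, and its adjusted p was 0.173 without Sensitized replicate 3, 0.194 without Sensitized replicate 4, and 0.131, 0.165 and 0.117 without S+P C5 replicate 1, 2 and 3. The other 3 Pdcd1 peaks were not called, at 0.67 ± 0.36, -0.26 ± 0.19 and -0.38 ± 0.18. Of the 5 Nt5e peaks, the one 5619 bp into the gene (chr9:88214398-88215019) opened, with 311, 311, 414 and 275 against 107, 179.7, 77.4 and 119 (1.44 ± 0.33). The other 4 had log2 fold changes between -0.37 and -0.10 and none was called.

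Transcription factors linked to exhaustion had 9 opening peaks and 1 closing peak of 84 (10.7% and 1.19%; median 0.05). Under the offsets described above the list had 4 opening and 4 closing peaks and a median of 0.013, against Sensitized replicates 1 and 2 alone 5 and 2, and against replicates 3 and 4 alone 19 and 5. Tox, which encodes the factor that sets up the exhausted state, had 3 opening peaks, the first at chr4:6882520-6883080 with 204, 319.9, 449 and 235 in S+P C5 and 84.2, 94.9, 22.9 and 54.2 in Sensitized (log2 fold change 2.24 ± 0.44). Its relative Tox2 had 2, one of them at its promoter (chr2:163044744-163045785), with 638, 809.7, 442 and 484 against 98.6, 87.9, 206 and 202 (1.99 ± 0.30). This was among the 19 promoter peaks that opened, and Sensitized replicates 1 and 2 were lower than 3 and 4. Eomes, a T-box factor of memory and exhausted cells, had 2 opening peaks, the first 160585 bp upstream of it (chr9:118146456-118146934), with 319.9, 499, 276 and 124 against 23.6, 23.5, 12.6 and 20.1 (3.93 ± 0.49). Ikzf2, which encodes Helios, opened at 2.30 ± 0.40 (545, 619.9, 338 and 453 against 35.8, 60.4, 149.6 and 151). The first peaks of these 4 genes were called against each pair of Sensitized samples, and the other Tox, Tox2 and Eomes peaks were not. The Maf peak (chr8:116196955-116197637) had 320.2, 399, 283 and 222 against 129, 195, 37.3 and 63.5 (1.53 ± 0.40). The closing peak of the list, 25345 bp upstream of Nfatc1 in an intron of Atp9b, had 152, 158, 574 and 503 in Sensitized and 201, 64.3, 82.4 and 70.2 in S+P C5, and its log2 fold change of -1.72 ± 0.43 became -0.55 against replicates 1 and 2 alone. Promoter peaks of Nr4a1, Nr4a3 and Nfatc2 were not called, at 0.29 ± 0.11, -0.11 ± 0.07 and -0.14 ± 0.14.

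Regulators of naive and memory cells closed more often than they opened. Of 150 peaks, 19 closed (12.7%) and 3 opened (2.0%), and the median log2 fold change was -0.27. When fitted with the offsets described above the list had 2 opening and 25 closing peaks and a median of -0.28, against Sensitized replicates 1 and 2 alone 3 and 6, and against replicates 3 and 4 alone 8 and 31. Satb1, a chromatin organizer of developing and resting T cells, gave 6 of the 19, Bach2, a repressor that holds back effector genes, gave 5, and Klf3 gave 3. The first Satb1 peak, 70502 bp upstream (chr17:52210850-52211399), had 135, 90.3, 80.7 and 60.5 in S+P C5 and 215, 224, 358 and 295 in Sensitized (log2 fold change -1.57 ± 0.27, adjusted p 6.45e-07 in DESeq2). That of Klf3 had 127, 62.8, 155 and 122 against 242, 268, 250.0 and 244 (-1.08 ± 0.19). Both were called against each pair. The first Bach2 peak (chr4:32342926-32344973) had 889.6, 624, 776 and 752 against 1256, 1416, 1925 and 1966 (-1.11 ± 0.18), and -0.81 against Sensitized replicates 1 and 2 alone, short of the fold threshold. Lef1, the partner of TCF1, and Il7r, the receptor for the survival cytokine IL-7, overlapped between the groups. The Lef1 peak had 159, 58.2, 52.96 and 67.9 against 104, 118, 351 and 341 (-1.42 ± 0.43, and -0.37 against replicates 1 and 2 alone), and the Il7r peak 423, 233, 317 and 279.9 against 406, 495, 774 and 853 (-1.01 ± 0.24, and -0.51). The Il7r call was also lost without Sensitized replicate 3 (-0.89), Sensitized replicate 4 (-0.83) or S+P C5 replicate 2 (-0.89). The 3 opening peaks lay nearest to Ets1 (1.85 ± 0.25), Klf2 (1.06 ± 0.25) and S1pr1 (1.37 ± 0.21), the last 2 genes of lymphocyte exit from lymph nodes, and S1pr1 had 2 closing peaks as well. The promoter peak of Tcf7 was not called (769.7, 768, 748 and 613 against 731, 682, 740.2 and 591, 0.08 ± 0.17).

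Effector genes had 10 opening peaks and 1 closing peak of 72 (13.9% and 1.39%; median 0.28). Using the offsets described above the list had 3 opening and 5 closing peaks and a median of 0.095, against Sensitized replicates 1 and 2 alone 5 and 2, and against replicates 3 and 4 alone 37 and 1. The balance of the 2 directions turned with the offsets. Fasl, the ligand with which cytotoxic cells trigger death through Fas, had 4. The first, at chr1:161514626-161515189 and 101168 bp downstream of the gene start, had 291, 471, 173 and 137 in S+P C5 and 10.96, 8.63, 13.2 and 22.8 in Sensitized (log2 fold change 4.26 ± 0.44, adjusted p 5.24e-19 in DESeq2). Id2, which encodes an inhibitor of E proteins, had 2 opening peaks, the first with 403, 522, 240.4 and 405 against 168, 128, 127 and 143 (1.47 ± 0.29), and that of the fractalkine receptor Cx3cr1 had 237, 347, 222 and 196 against 127, 94.2, 72.8 and 70.5 (1.46 ± 0.32). For these 3 genes the first peak was called against each pair. Tbx21, which encodes T-bet, and Zeb2, which acts with it in terminal effector cells, depended on Sensitized replicates 3 and 4. The Tbx21 peak (chr11:97000325-97000916) had 219, 225, 208 and 195 against 135, 104, 28.7 and 23.9 (1.54 ± 0.42), with 0.83 against replicates 1 and 2 alone and -0.06 with the offsets. The Zeb2 peak had 406, 497, 323 and 428 against 254, 191, 75.7 and 85.7 (1.45 ± 0.34), with 0.89 against replicates 1 and 2 alone. The closing peak of the list, 192700 bp downstream of the interferon-gamma gene Ifng, had 491, 260.2, 393 and 237 against 474, 674, 984 and 900.3 (-1.13 ± 0.26), and -0.72 against replicates 1 and 2 alone. Promoter peaks of Gzmb and Prf1, the granzyme B and perforin genes of the cytotoxic granule, were not called (-0.15 ± 0.38 and 0.07 ± 0.10). At Gzmb, Sensitized replicates 1 and 2 stood at 475 and 337 and replicates 3 and 4 at 123 and 124, with S+P C5 at 220.4, 216, 198 and 320.2 between them.

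The TGF-beta pathway, in which the receptors signal through SMAD proteins to restrain T cells, was the list with the highest share of closing peaks, 10 of 52 (19.2%), and none opened. Its median log2 fold change was -0.28, and 5 of the 52 peaks were above 0. The closing peaks lay nearest to Smad7 (4 of 16 peaks), Tgfbr2 (3 of 13), Ski (1 of 8), Smad4 (1 of 3) and Tgfbr3 (its only peak). Most therefore came from Smad7 and Tgfbr2, and Tgfb1, Tgfbr1, Smad2, Smad3 and Skil had no called peak. The products of the genes with closing peaks do not act in 1 direction: Tgfbr2 and Smad4 carry the signal, Tgfbr3 presents the ligand, and Smad7 and Ski restrain it. Beside the Tgfbr2 and Smad7 peaks given above, the Ski peak (chr4:155282180-155282734) had 142, 94.9, 128 and 106 in S+P C5 and 267, 268, 335 and 338 in Sensitized (log2 fold change -1.35 ± 0.21) and was called against each pair. The Tgfbr3 peak had 113, 47.4, 27.7 and 68.7 against 65.2, 103, 341 and 327 (-1.69 ± 0.49), and the Smad4 peak 93.6, 62.8, 22.7 and 38.8 against 54.8, 76.1, 237 and 239 (-1.47 ± 0.48). At both of these, Sensitized replicates 1 and 2 lay among the S+P C5 values, and against them alone the log2 fold changes were -0.36 and -0.25. The Smad4 call was also lost without Sensitized replicate 4 (-1.16, adjusted p 0.111 in DESeq2). Against replicates 1 and 2 alone 5 peaks of the list closed and 0 opened, against replicates 3 and 4 alone 12 and 1, and with the offsets 10 and 0.

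Signalling genes of the T cell receptor and costimulation had 9 opening and 3 closing peaks of 103 (8.74% and 2.91%; median 0.00). Using the offsets described above the list had 3 opening and 3 closing peaks and a median of -0.029, against Sensitized replicates 1 and 2 alone 5 and 0, and against replicates 3 and 4 alone 12 and 6. The opening peaks included those of 3 phosphatase genes and of a kinase that removes diacylglycerol. The peak in Ptpn11, which encodes SHP-2, had 471, 585, 480.0 and 407 in S+P C5 and 223, 139.7, 44.7 and 71.6 in Sensitized (log2 fold change 2.02 ± 0.34), and that in Dgkh 347, 378, 361 and 318 against 108, 132, 92.9 and 82.4 (1.76 ± 0.25). Ptpn13 had 3 opening peaks and Ptpn22 had 2, the first of the latter at 1.02 ± 0.21, and Tnfrsf9, the costimulatory receptor 4-1BB, had 1 (1.27 ± 0.30). The Cblb peak (1.03 ± 0.44, adjusted p 0.0694 in DESeq2) was not called under 8 of the 20 settings, among them leaving out Sensitized replicate 3 (0.74, adjusted p 0.222) or 4 (0.77, 0.252) and S+P C5 replicate 2 (0.89, 0.202) or 3 (0.91, 0.172). The Ptpn22 call was lost without Sensitized replicate 3 (0.87) or S+P C5 replicate 2 (0.89). The 3 closing peaks all lay nearest to Prkcq, the protein kinase C of the immune synapse, the first with 166, 99.5, 171 and 116 against 249, 243, 311 and 343 (-1.04 ± 0.22).

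Cytokine receptors and JAK-STAT genes had 5 opening and 2 closing peaks of 85 (5.88% and 2.35%; median -0.07). Under the offsets described above the list had 2 opening and 4 closing peaks and a median of -0.050, against Sensitized replicates 1 and 2 alone 2 and 1, and against replicates 3 and 4 alone 10 and 3. They opened at Stat3 (262, 444, 258 and 161 against 142, 61.98, 40.1 and 39.6, 1.98 ± 0.37), Jak2 (493, 617, 513 and 409.7 against 343, 289.5, 104 and 138, 1.22 ± 0.37) and Stat4 (2 peaks, the first 1.15 ± 0.39), and closed at Ifngr2 (-1.40 ± 0.33). Il6st, the shared receptor chain gp130, had 1 peak in each direction. Only Stat3 of these 5 genes was called at its first peak against each pair of Sensitized samples. At the Stat4 peak, Sensitized replicates 1 and 2 stood at 379.6 and 306 and replicates 3 and 4 at 83.1 and 107, and its call was lost without replicate 3 (0.88) or 4 (0.92, adjusted p 0.107 in DESeq2). Chemokine receptor and adhesion genes had 6 opening peaks and 1 closing peak of 59 (10.2% and 1.69%; median 0.10). With the offsets described above the list had 3 opening and 2 closing peaks and a median of -0.032, against Sensitized replicates 1 and 2 alone 3 and 1, and against replicates 3 and 4 alone 16 and 1. Cd44 had 2 opening peaks, Cxcr4 2 opening and 1 closing, and the B cell follicle receptor Cxcr5 opened at a transcript start 35125 bp into the gene, with 495, 667, 512 and 434 in S+P C5 and 234, 189.9, 219 and 214 in Sensitized (1.29 ± 0.26). The Cd44 peak had 661, 972, 787 and 622 against 361, 412, 115 and 167 (1.53 ± 0.33).

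The last lists gave few calls. AP-1 and related factors, whose motif was frequent in opening peaks, had 0 opening and 2 closing peaks of 31, both nearest to Bach1 (the first -1.25 ± 0.26), a repressor that competes with AP-1-like factors, and a median of 0.04. Cell cycle genes had 1 opening peak of 29 (E2f2, 0.99 ± 0.26; median 0.08), and housekeeping genes had no called peak of 19 and a median of 0.09.

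Some calls named above ended under other settings whose values have not been given. Against Sensitized replicates 1 and 2 alone, the first peaks of Jak2 (0.68), Stat4 (0.50), Ifngr2 (-0.63), Il6st (-0.86), Prkcq (-0.82), Ptpn22 (0.70), Tnfrsf9 (0.90) and Cblb (0.32) were not called at the log2 fold changes in parentheses. With the offsets that remove the trend with level, those of Nt5e (0.66), Entpd1 (0.15), Havcr2 (0.09), Tox (0.74), Maf (0.08), Klf2 (0.74), Cx3cr1 (0.61), Zeb2 (0.61), Jak2 (0.73), Stat4 (0.65), Dgkh (0.81), Tnfrsf9 (0.45), Cblb (0.32) and E2f2 (0.30) were not called. All peaks in the list with the offsets are opening peaks. Without S+P C5 replicate 1 the E2f2 peak was not called (0.86, adjusted p 0.0143 in DESeq2).

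The other 5 groups of the series show where the 2 sets stood beyond this comparison. They were 3 samples each of Naive (no graft, no pregnancy), N+P C1 (pregnancy without a graft, PD1-) and N+P C5 (pregnancy without a graft, PD1+CD73+), and 4 each of S+P C4 (graft then pregnancy, PD1-) and S+P C7 (graft then pregnancy, PD1+CD73-). The median normalized count of the 416 opening peaks was 339, 459.9, 313 and 285 in S+P C5 and 157, 146, 73.4 and 88.1 in Sensitized, which the choice of the peaks sets apart. It was 39.95, 42.3 and 44.8 in Naive, 33.7, 35.9 and 37.7 in N+P C1, 49.3, 52.1 and 57.1 for N+P C5, 122, 145, 162 and 144 for S+P C4 and 330.4, 371, 287 and 226 in S+P C7. Opening peaks were low in all samples without a graft, also in the PD1+CD73+ cells of pregnancy, while the ranges of the PD1+ groups of S+P mice overlapped and S+P C4 stood near the higher Sensitized samples. At each replicate number S+P C5 stood above S+P C7. The peaks were chosen for high counts in these S+P C5 samples, which favours S+P C5 over S+P C7 as well. With that in mind, S+P C5 had the highest of the 7 group means at 282 of the 416 peaks and S+P C7 at the other 134.

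The 496 closing peaks had medians of 177, 94.9, 116 and 107 in S+P C5 and 160.1, 207, 378 and 368 in Sensitized, so that Sensitized replicates 3 and 4 were far above replicates 1 and 2. The medians were 426, 407 and 450.5 in Naive, 364, 416 and 459.7 in N+P C1, 357, 391 and 445 for N+P C5, 364, 262, 149.9 and 182 for S+P C4 and 121, 67.2, 73.7 and 72.5 in S+P C7. Sensitized replicates 3 and 4 lay in or near the range of the groups without a graft, and replicate 1 within that of S+P C5. S+P C7 had the lowest of the 7 group means at 440 of the 496 peaks and S+P C5 at 45, although the choice of the peaks favours low values in S+P C5. At each replicate number the median of S+P C7 stood below that of S+P C5.

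**Figure D5:**
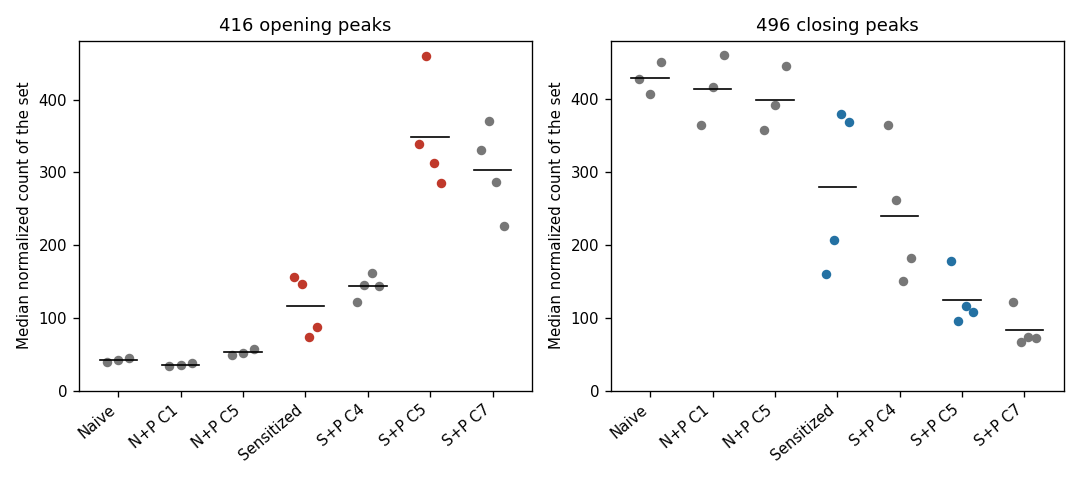
Median normalized count of the 416 opening peaks (left) and the 496 closing peaks (right) in each sample of the 7 groups, in order of replicate number, with the group mean as a line. Coloured points are the Sensitized and S+P C5 samples that chose the peaks. Opening peaks are low without a graft, and among the Sensitized samples the closing peaks are high in replicates 3 and 4 and low in 1 and 2.

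The contrast of PD1+CD73+ cells after pregnancy with unmated mice could also be made in mice without a graft, N+P C5 against Naive, which shares no sample with the comparison above. Across peaks, 1 of the 3824 peaks that kept an adjusted p there was called (0.0262%), and none of the 20 first opening and closing peaks was. Of these 20 only 1 kept an adjusted p after the tool's filter on low counts. The log2 fold changes in N+P C5 against Naive were between 0.07 and 1.94 for the 10 opening peaks, 4 of them with an unadjusted p under 0.05, and between -0.36 and 0.11 for the 10 closing peaks, 1 of them with an unadjusted p under 0.05. The highest was at Ppp2r5c, where Naive had 4.41 ± 0.956 normalized counts (SD, n = 3), N+P C5 had 16.3 ± 5.16 (SD, n = 3) and S+P C5 had 256 ± 65.8 (SD, n = 4). At Tigit the means were 40.6 ± 12.6 for Naive, 45.9 ± 1.99 for N+P C5 and 352 ± 31.4 for S+P C5, and at Stk39, in that order, 56.8 ± 15.3, 119 ± 27.5 and 548 ± 90.6. The difference of the 2 effects passed the thresholds at 807 of 13527 peaks (5.97%). It did so at all 10 first opening and 8 of the 10 first closing peaks, which were chosen on 1 of the 2 effects, so that this count is no independent support.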

How the data were processed

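ATAC-seq libraries of sorted OVA:Kb-tetramer-positive CD8+ T cells were sequenced together in 1 paired-end run, from cells of individual mice sorted in independent experiments per the study's methods. Which experiment or mouse a sample came from, and whether any samples are technical replicates, is not given in the sources used here, so p-values measure the spread between samples. Fractions of S+P mice, and those of N+P mice, share numbered prefixes in the deposited names. Whether a shared prefix marks a shared mouse is not stated, and the main fit treated all 25 libraries as independent. The authors trimmed reads with Cutadapt 3.4, aligned them with Bowtie2 2.2.9 to GRCm39, removed non-unique reads and, with Picard 2.21.8, duplicates, called peaks per library with Genrich 0.6.1, kept those that recurred in a group, merged the 7 lists with bedtools 2.27.1, and deposited a table of raw read counts of 25 libraries over 13527 peaks. The group peak lists, deposited with a p-value and a q-value per peak, pool the libraries of a group, and only their positions were used (overlap of at least 1 bp). A peak had to be found in at least 1 group to be in the table.

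Counts were fitted here with DESeq2 1.42.0 (R 4.3.3) over all 25 libraries, with S+P C5 against Sensitized as the contrast and Benjamini-Hochberg adjustment over all peaks. The fit was tested on simulated data drawn without a split inside any group, so that test does not cover the split of the Sensitized samples. Normalized counts are counts divided by DESeq2's size factors, and errors of log2 fold changes are standard errors. Counts are not divided by peak length. Each peak was named after the nearest protein-coding gene start in the GRCm39 annotation, which gave a name to 13522 peaks. The genes named were those of the first 10 peaks in each direction by adjusted p with no overlap between the groups, the genes of 11 lists with a called peak (by their first peak) or, where uncalled, their highest promoter peak, the 8 genes with the most called peaks, and every peak of Pdcd1 and Nt5e. The comparison, lists and motifs were chosen with earlier results of these data known. Alternatives were edgeR 4.0.16, other scalings (among them loess offsets with limma 3.58.1), filters and thresholds, a fit of 8 libraries, a replicate block and leaving out libraries. Values of some genes of these lists are not reported here.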

Additional observations from a re-analysis of the deposited data

Results flagged for a closer look

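At 18 of the 20 first peaks, the difference between S+P C5 and Sensitized differed from that between N+P C5 and Naive by the test of the interaction in DESeq2 and by more than 0.9 on the log2 scale. The peaks were chosen on the first of these differences, so this is no independent test. The interaction of the opening peaks, as a log2 value, was 2.25 at Tigit, 1.21 at Stk39, 2.38 at Nedd4l, 2.60 at Gtsf1l, 2.71 at Pkdcc, 3.15 at Ppp2r5c, 1.82 at Cyrib, 1.51 at Ptpn13, 3.11 at ENSMUSG00000144241 and 1.96 at Stx6. That of the closing peaks was -0.97 at Tgfbr2, -1.10 at Smad7, -1.34 at Wwox, -1.03 at Slc12a7, -1.31 at 4930523C07Rik, -1.40 at Edaradd, -1.62 at Tiam1 and -0.92 at Gramd2b.

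In 3 peaks 1 sample of S+P C5 stood apart, and it was replicate 2, the shallowest library, each time. Its normalized count was 654 at Cyrib, where the others had 476 to 493, 124 at Slc12a7 (others 224 to 243) and 156 at Tiam1 (others 256 to 261). The gap to the nearest sample was 0.906, 0.847 and 0.948 of the group's range, above Dixon's 95% critical value for 4 samples. Chance flags about 1 in 20 groups, and 44 groups were examined. In all 3 peaks replicate 2 lay farther from Sensitized than the other S+P C5 samples did.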

How the results depend on the processing

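No called peak was called in the opposite direction under any of 20 alternatives, and 36 of the 68 named called peaks were called under all of them. Leaving out Sensitized replicates 3 and 4 gave 439 called peaks (292 opening, 147 closing), and leaving out replicates 1 and 2 gave 1781 (949 and 832). Loess offsets gave 196 opening peaks and turned the Tbx21 opening peak to -0.0597. Leaving out 1 library at a time gave 623 to 1257 called, 320 to 582 opening and 294 to 675 closing peaks, and a difference in promoter share from -0.0486 (without S+P C5 replicate 4) to 0.890 percentage points. The other scalings, filters, the stricter adjusted p and edgeR gave 403 to 430 opening and 465 to 527 closing peaks, and a fit of the 8 libraries alone 395 and 450 peaks. The cause of these differences was not tested.

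Replicate numbers did not pair the samples: the deviations of same-numbered S+P C5 and Sensitized samples had r = -0.61, 0.36, -0.29 and 0.06, and not every sample was closest to its own number. With a replicate block 950 peaks were called, 422 opening and 528 closing.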
